A study of Mus musculus with 2 samples.

Results

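The genes described here encode molecules through which erythroblasts and macrophages hold on to each other. The members were chosen by symbol and are Vcam1, Itgav, Itga4, Itgb1, Icam4 and Maea, which are 6 of the 27998 genes listed in the deposited table. All 6 had UMIs (unique molecular identifiers, each standing for 1 captured transcript). They were followed across stages of red cell differentiation and in cells with 20 or more UMIs of C1qa, C1qb and C1qc together, called C1q cells below.

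In the fetal liver, erythroblasts mature while attached to a central macrophage in a structure called the erythroblastic island. VCAM1 on the macrophage binds integrin α4β1 on the erythroblast, whose chains are encoded by Itga4 and Itgb1. ICAM4 on the erythroblast binds αV integrins on the macrophage, whose αV chain is encoded by Itgav. MAEA was described as an attachment protein of both partners and is also a subunit of the CTLH ubiquitin ligase.

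The cells came from pooled fetal livers of C57BL/6 mouse embryos at e13.5, with no other genotype or treatment. Ter119+ cells were first depleted and an equal number was then added back, so shares of cells do not describe the liver. CITE-seq read the mRNA and a panel of antibodies, each tagged with a DNA barcode, in the same cells: 1 cDNA library and 1 antibody library share all 7863 cell barcodes. There is no replicate library, so no test was possible, and intervals below are exact 95% intervals that cover counting error only. A cell had a median of 5707 UMIs, from 2510 to 38047, and 7244 cells remained after the quality limits and the removal of doublets.

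Stages were set by the antibodies to Ter119, a late erythroid surface antigen, and CD71, the transferrin receptor, in 6424 cells with low counts for antibodies to other lineages. S0-low held 1507 cells, S0-medium 1054 and S1 612, all with low Ter119 and in the order of increasing CD71. S2 held 1297 cells with intermediate Ter119 and CD71 above the border between S0-medium and S1. The 215 cells with intermediate Ter119 and CD71 below that border were in no stage. S3 held 838 cells with high Ter119 and high CD71, and S4/S5 held 898 with high Ter119 and lower CD71. Median UMIs per cell were 6154, 10282, 10151.5, 6021, 4534.5 and 3949 from S0-low to S4/S5, and adult and embryonic globin genes took 1.05%, 1.39%, 2.80%, 13.1%, 37.6% and 64.0% of the UMIs. Levels are pooled CPM, the UMIs of a gene in a group scaled to counts per 1e6 UMIs of that group. Globin RNA therefore lowers the CPM of every other gene in the late stages, and each stage result is read against the median gene. In a pooled level taken alone, fewer expressing cells and less RNA per cell cannot be told apart. Shares of cells with a UMI are therefore given beside it for Icam4, Vcam1 and Itgav.

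The samples are labelled as erythroid progenitors. All 10 erythroid markers were detected in the stages, but also in each group of other cells named below, so their detection does not set the stages apart. The kept cells also held 185 hepatocyte-marker, 274 myeloid-marker, 79 megakaryocyte-marker, 35 endothelial-marker and 15 mesenchymal-marker cells, named for the genes that set them apart. The 79 C1q cells were checked against macrophage markers. All 9 markers were detected, with a summed level of 12007 CPM against 38.5 CPM in the stages. These 9 include C1qa, C1qb and C1qc, which chose the cells, so their detection and part of this sum were fixed in advance. Csf1r, Adgre1 and Lyz2 took no part in that choice. The macrophage receptor Csf1r stood at 442 CPM in C1q cells and 2.16 CPM in the stages, and Adgre1, which encodes F4/80, at 486 and 0.733 CPM. Lyz2 was detected in 100% of C1q cells. Markers of other cell types were present too. The erythroid list summed to 20596 CPM against 123516 CPM in the stages, and all 10 of its genes had UMIs. The 8 hepatocyte markers summed to 582 CPM against 2615 CPM in the stages. The endothelial list was higher in C1q cells than in the stages, at 464 and 105 CPM with 6 of 7 genes detected and Cdh5 highest. The megakaryocyte list stood at 663 and 57.6 CPM, of which Pf4 held 589 CPM in C1q cells. The mesenchymal list stood at 82.7 and 6.88 CPM, with 4 of 7 genes detected in C1q cells and Dcn highest at 40.5 CPM. The part of these cells or transcripts in the results below was not tested.

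C1q cells carried antibody of several kinds. Their median counts were 80 for Ter119, 315 for CD71, 203 for CD11b and 1420 for CD44, and 17.7% of them had a count of the non-specific IgG, compared with 2.35% of cells in the stages. Only 3 of the 79 C1q cells passed the limit on other lineages, and all 3 lay in the S0-low gate. They were taken out of the stages.

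Icam4 lies on chromosome 9 between its relatives Icam1 and Icam5. In GRCm38.p6, the patch release of the mm10 build used for the files, Icam4 spans chr9:21029432-21030596, Icam1 ends 617 bases before it and Icam5 starts 1441 bases after it. Itga4 spans chr2:79255426-79333114, Itgav chr2:83722303-83806917, Vcam1 chr3:116110020-116129688, Maea chr5:33335572-33373294 and Itgb1 chr8:128685654-128733579. All of them are protein-coding.

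The bases just before the start of Icam4 and Itga4 are printed because these genes encode the ligand and the α4 receptor chain of the erythroblast, whose stage levels are described next. Each run is 250 bases from RefSeq on GRCm38.p6, plus strand, ending at the base before the annotated start, from chr9:21029182-21029431 and chr2:79255176-79255425. Capitals mark letters found by a search of both strands for GATA words, which are AGATAA or TGATAA or AGATAG or TGATAG, and for CACCC words, which are CCACACCC or CCCCACCC.
Icam4: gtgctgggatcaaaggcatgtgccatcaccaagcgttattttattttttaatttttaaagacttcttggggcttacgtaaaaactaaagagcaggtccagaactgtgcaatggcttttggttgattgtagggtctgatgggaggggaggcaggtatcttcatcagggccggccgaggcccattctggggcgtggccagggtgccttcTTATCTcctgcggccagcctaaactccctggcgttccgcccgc
Itga4: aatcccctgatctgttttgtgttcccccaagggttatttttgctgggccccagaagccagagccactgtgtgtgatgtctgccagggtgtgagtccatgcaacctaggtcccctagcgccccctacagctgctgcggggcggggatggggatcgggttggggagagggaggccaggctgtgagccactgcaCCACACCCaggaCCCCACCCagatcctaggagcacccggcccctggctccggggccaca
The Icam4 window held 1 GATA word, AGATAA read on the opposite strand, which began 43 bases before the start. The Itga4 window held both CACCC words, beginning 59 and 47 bases before the start. Among 32851 promoters of the same length, 26.5% held a GATA word and 11.8% a CACCC word. The windows of Itgb1 and Itgav held neither, but that of Itgav, at chr2:83724147-83724396, lies inside the gene span given above and so belongs to another annotated start. These matches describe letters and not sites of binding.

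Icam4, the erythroid ligand, had its highest level in S3. It stood at 77.3 CPM in S0-low (896 UMIs), then 166 (S0-medium), 223 (S1), 323 (S2) and 355 CPM in S3 (1602 UMIs), and at 114 CPM in S4/S5 (439 UMIs). No neighbours in this order of levels had overlapping intervals. S3 exceeded S0-low by 4.60-fold (95% interval 4.23 to 4.99). The median of 9400 genes in the same comparison had a ratio of 0.379, and Icam4 lay at the 97.7th percentile of these genes. The size of the difference depended on the gates and on globin: with stages set on log10 antibody counts it was 9.70-fold, with a Gaussian mixture 9.65-fold, and with globin left out of the totals 7.30-fold.

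With the gates used here, each step up to S3 was an increase in CPM for Icam4. The ratio was 2.14 (1.98 to 2.32) from S0-low to S0-medium, 1.34 (1.25 to 1.44) to S1, 1.45 (1.36 to 1.55) to S2 and 1.10 (1.04 to 1.17) to S3. The direction of the last step depended on the unit and on the gates: in UMIs per 100 cells Icam4 was 230 in S2 and 191 in S3, and the ratio was 0.783 with antibody counts scaled cell by cell. From S3 to S4/S5 the ratio was 0.320 (0.288 to 0.356), below the median gene at 0.505.

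Most cells of the middle stages carried Icam4 RNA. At least 1 UMI was found in 36.1% of S0-low cells, 73.1% of S0-medium, 80.9% of S1, 83.4% of S2, 69.0% of S3 and 26.7% of S4/S5 cells. Hepatocyte-marker cells, which should lack the transcript, had a UMI in 7.57% of cells at a median depth of 13126 UMIs. With every cell thinned to 2000 UMIs the shares were 15.2%, 27.4%, 36.9%, 49.7%, 45.6% and 16.4% from S0-low to S4/S5, and 1.08% in hepatocyte-marker cells.

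S0-low was a mixture at the RNA level. Among its cells, 106 carried hepatocyte markers and 73 myeloid markers, and without all such cells Icam4 in S0-low was 90.9 CPM and S3 exceeded it by 3.94-fold (3.63 to 4.29). Within the remaining S0-low cells, those with high cKit antibody counts had 82.3 CPM and those with low counts 111.8 CPM, a ratio of 0.736 (0.641 to 0.847). For the other 5 members the interval of this ratio included 1. Primitive erythroid globin genes (Hbb-y, Hbb-bh1 and Hba-x) summed to 3356 CPM in the cells with low cKit and 161 CPM in those with high cKit.

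Itga4, the α4 chain that pairs with β1 to bind VCAM1, stayed between 78.8 and 91.9 CPM up to S2 with the gates used here. Its values were 91.9 CPM in S0-low (1066 UMIs), 83.6 in S0-medium, 78.8 in S1, 90.3 in S2, 73.8 in S3 (333 UMIs) and 23.6 in S4/S5 (91 UMIs). Ordered by level, neighbours among the first 5 stages overlapped, and S4/S5 stood apart below them. Without cells that carried markers of other lineages, S0-low stood at 104 CPM (97.9 to 111), above S2 at 90.3 (84.3 to 96.7). S0-medium over S0-low was then 0.805 (0.736 to 0.881), and 0.91 (0.832 to 0.995) with such cells left in. Other gates, with such cells left in, gave 0.702 (log10 antibody counts), 0.757 (counts scaled cell by cell) and 0.694 (Gaussian mixture). In UMIs per cell this ratio turned direction, at 1.22 with such cells and 1.13 without. S3 over S0-low was 0.803 (0.708 to 0.909) in CPM, and with globin UMIs left out of the totals it was 1.27, so the direction of this difference depended on globin. In either unit Itga4 lay above the median gene, whose ratios were 0.379 and 0.601, and at the 81.8th percentile. From S3 to S4/S5 its ratio was 0.320 (0.251 to 0.404), at the 8.78th percentile of 5556 genes.

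Itgb1, the shared β1 chain, was highest in the stages with low Ter119. It stood at 89.4 CPM in S0-low (1037 UMIs), 102 in S0-medium, 91.1 in S1, 54.7 in S2, 28.4 in S3 (128 UMIs) and 13.7 in S4/S5 (53 UMIs). Ordered by level, neighbours among the 3 stages with low Ter119 overlapped. Each later stage was lower than the one before beyond the intervals. S0-medium exceeded S0-low by 1.15-fold (1.05 to 1.25), and under the 3 other gates by 1.38-, 1.34- and 1.35-fold. Compared with S1, S2 had a ratio of 0.600 (0.532 to 0.678), which was 0.951 with stages set on log10 antibody counts. S4/S5 over S3 was 0.484, and 0.952 with antibody counts scaled cell by cell. S3 had a ratio to S0-low of 0.317 (0.262 to 0.382). The latter lay at the 41.3rd percentile, near the median gene. It was 0.190 with the antibodies scaled within each cell and 0.504 without globin in the totals.

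The ratio of UMIs between the 2 chains of the α4β1 receptor was not constant over the stages. Per UMI of Itgb1 there were 1.03 UMIs of Itga4 in S0-low (0.943 to 1.12), 0.816 in S0-medium, 0.865 in S1, 1.65 in S2, 2.60 in S3 (2.12 to 3.22) and 1.72 in S4/S5 (1.21 to 2.46). These ratios do not depend on globin or on the depth of a cell, but they depended on the gates. The ratio itself cannot be read, only its change between stages, since the genes may be captured with different efficiency. With stages set on log10 antibody counts, Itga4 and Itgb1 stood at 116 and 73.4 CPM in S0-low and 83.0 and 95.1 in S1. They were 83.2 and 90.4 CPM in S2, still below 1 Itga4 per Itgb1, and 79.7 and 33.2 in S3. In S2 they were 90.3 and 47.5 CPM with antibody counts scaled cell by cell, and 86.7 and 62.9 with a Gaussian mixture. Icam4 per Itga4 went from 0.841 in S0-low to 1.98, 2.83, 3.57, 4.81 and 4.82 in the later stages in order.

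**Figure D1:**
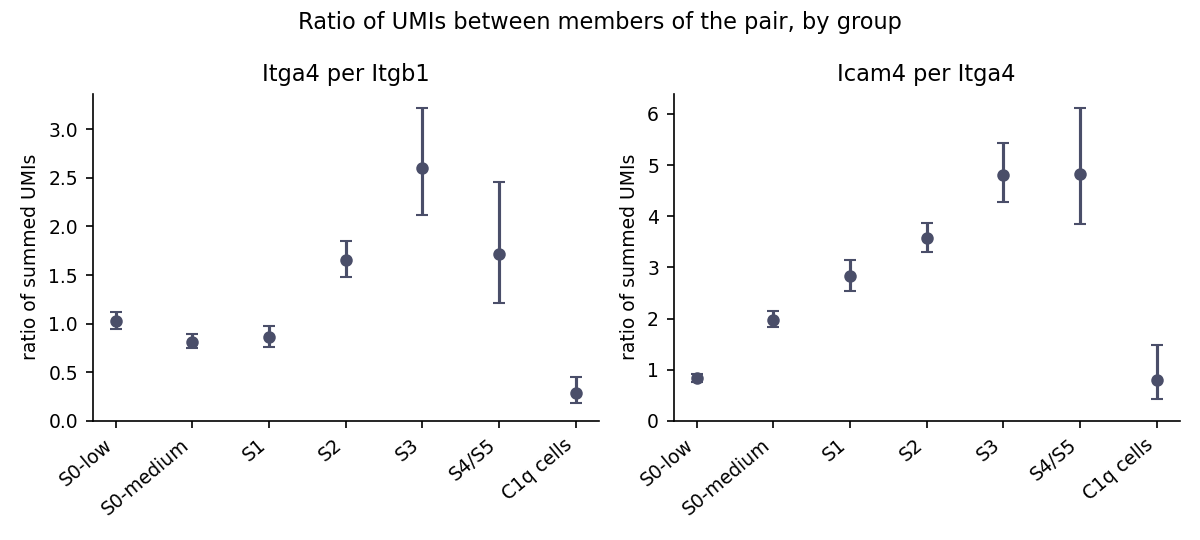
Ratio of summed UMIs of Itga4 to Itgb1 (left) and of Icam4 to Itga4 (right) in the 6 stages and the C1q cells, with exact 95% intervals for counting error. The Itga4 to Itgb1 ratio is highest in S3, at 2.60, and lowest in C1q cells, at 0.292.

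Maea, the attachment protein and ligase subunit, was highest at the start. It stood at 93.1 CPM in S0-low (1080 UMIs) and 90.3 in S0-medium, whose intervals overlapped, and then at 62.3 in S1, 47.2 in S2, 35.9 in S3 (162 UMIs) and 14.8 in S4/S5 (57 UMIs). S1 over S0-medium was 0.690 (0.612 to 0.776), at the 10.9th percentile of 8659 genes, where the median gene had 0.927. S3 over S0-low was 0.386 (0.325 to 0.455), at the 50.9th percentile. With globin left out of the totals, S3 over S2 for Maea was 1.06 in place of 0.762.

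**Figure D2:**
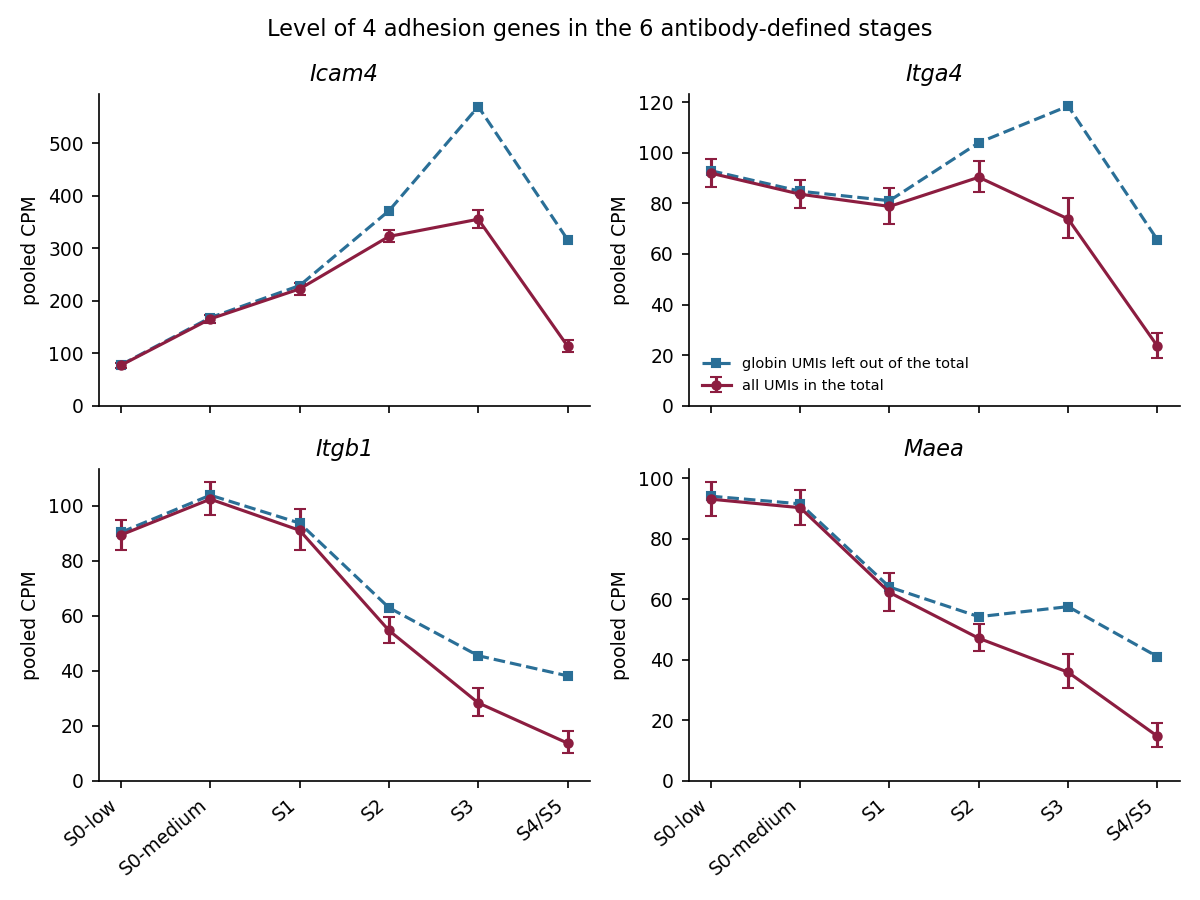
Pooled CPM of Icam4, Itga4, Itgb1 and Maea (y axes, each from 0) in the 6 stages (x axis), with exact 95% intervals for counting error on the solid line and the level without globin UMIs in the total on the dashed line. Icam4 is highest in S3 on both lines, and Itga4 in S3 lies below S0-low on the solid line and above it on the dashed line.

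Read as a set, 1 of 6 members was at least 2-fold higher in S3 than in S0-low, beside 5.78% of all genes, and 4 of 6 were at least 2-fold lower, beside 64.2% of all genes. The median ratio of the members was 0.352 and that of all genes 0.379. Itgav and Vcam1 reached 50 UMIs through S0-low, with 57 and 205 UMIs there. The counts of members lower than in S0-low are therefore descriptions and no test. Without cells that carried markers of other lineages, 4 members had 50 or more UMIs, of which 1 was at least 2-fold higher, beside 6.13% of genes, and 2 at least 2-fold lower, beside 63%. Their median was then 0.541 and that of all genes 0.392, and the ratio of Vcam1, from 8 and 15 UMIs, was 1.17 (0.429 to 2.94). From S3 to S4/S5, all 4 members with 50 or more UMIs were at least 2-fold lower, beside 48.9% of genes. Without globin in the totals no member reached 2-fold in this step. The ratios were then 0.554 for Itga4, 0.839 for Itgb1, 0.555 for Icam4 and 0.713 for Maea, and the median gene had 0.876. From S0-low to S0-medium, 1 member (Icam4) was at least 2-fold higher, beside 1.56% of genes, and 2 (Itgav and Vcam1) were at least 2-fold lower, beside 13% of genes. Without other lineages the ratio of Icam4 in this step was 1.83 (1.68 to 1.98), under 2-fold. Of the S0-low UMIs of these 2 genes, 26 of 57 for Itgav and 15 of 205 for Vcam1 remained without cells that carried markers of other lineages.

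Finer groups gave the same genes' course without the stage borders. Ter119-low cells were cut into 8 groups of 372 or 373 cells by CD71 counts, and the later cells into 8 groups of 405 or 406 by Ter119 counts. Cells of other lineages were left out, and cells with intermediate Ter119 that were in no stage were taken in. Icam4 went from 33.0 CPM in the lowest CD71 group to 232 CPM in the highest, with each group above the one before. Along Ter119 it went on from 266 CPM to 359 CPM in the third group, where the median Ter119 count was 62, and then down to 156 CPM in the last. Globin took 6.98% of the UMIs in the first Ter119 group and 61.3% in the last, so the place of this peak depended on globin. With globin left out of the totals, Icam4 was highest in the fifth Ter119 group, at 563 CPM, and stood at 404 CPM in the last.

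Itga4 had its highest levels in the 2 groups with least CD71, at 124 and 122 CPM, above S0-low as a whole without other lineages at 104 CPM. From the third CD71 group to the fourth Ter119 group it stayed between 75.2 and 93.2 CPM, and it ended at 28.5 CPM. Itgb1 went from 61.9 CPM in the lowest CD71 group up to 109 CPM in the fifth and then down to 14.5 CPM in the last Ter119 group. Maea was 82.7 CPM in the lowest CD71 group, 106 CPM in the second, 56.5 CPM in the last and 18.3 CPM in the last Ter119 group. Without globin in the totals, Itga4 stood at 93.9 CPM in the first Ter119 group, 130 in the fourth and 73.6 in the last. In that unit Itgb1 stood at 77.7 and 37.4 CPM in the first and last Ter119 groups, and Maea at 60.9 and 47.4 CPM.

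**Figure D3:**
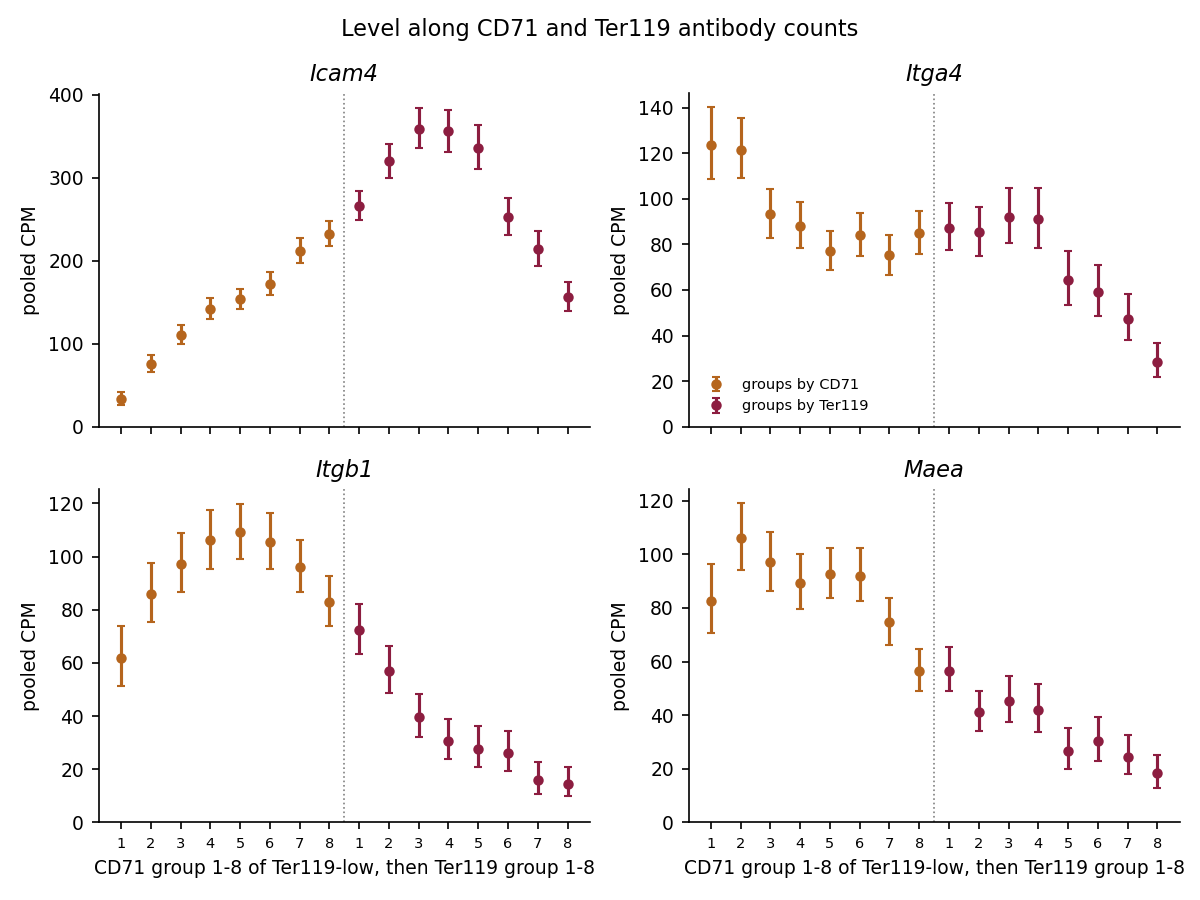
Pooled CPM of Icam4, Itga4, Itgb1 and Maea (y axes) in 8 groups of increasing CD71 count among Ter119-low cells and then 8 groups of increasing Ter119 count (x axis, lowest to highest on each side of the dotted line), with exact 95% intervals for counting error. With globin UMIs in the totals, Icam4 increases through the CD71 groups to 359 CPM in the third Ter119 group. Itgb1 peaks at 109 CPM in the fifth CD71 group.

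Vcam1, the macrophage ligand of α4β1, was concentrated in a few cells. In C1q cells it stood at 437 CPM (386 to 494, 259 UMIs). In the stages it was 17.7 CPM in S0-low (205 UMIs), 0.827 in S0-medium, 1.92 in S1, 1.83 in S2, 2.88 in S3 and 2.33 in S4/S5, and past S0-low these intervals overlapped. C1q cells exceeded the pooled stages by 76.5-fold (64.2 to 91.1), at the 98.9th percentile of 10542 genes, where the median gene had a ratio of 0.957.

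Most Vcam1 of S0-low lay in cells with hepatocyte or other non-erythroid markers. Without these cells S0-low held 15 Vcam1 UMIs in 1323 cells, or 1.54 CPM (0.859 to 2.53), and C1q cells exceeded the stages by 290-fold (221 to 385). A Vcam1 UMI was then found in 1.05% of stage cells at a median depth of 5570.5 UMIs and in 64.6% of C1q cells at 6800 UMIs. Thinned to 2000 UMIs the shares were 0.349% and 50.6%. In the 3 C1q cells under the lineage limit Vcam1 stood at 153 CPM, from few UMIs. That was 26.7-fold the level of 5.72 CPM in the stages with other lineages left in, so it compares with the 76.5-fold above and not with 290-fold.

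C1q cells were not the only cells with Vcam1. Hepatocyte-marker cells had 130 CPM (290 UMIs in 185 cells), endothelial-marker cells 142 CPM (46 UMIs in 35 cells) and mesenchymal-marker cells 257 CPM (25 UMIs in 15 cells), while myeloid-marker cells had 5.67 CPM. C1q cells exceeded hepatocyte-marker cells by 3.37-fold (2.84 to 4.00). Of the 716 Vcam1 UMIs in the kept cells, C1q cells held 36.2% and hepatocyte-marker cells 40.5%, and the 6010 stage cells without other lineages held 9.36%. Another 295 Vcam1 UMIs lay in the 619 cells removed by the filters.

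Vcam1 was uneven among the C1q cells. The median was 2 UMIs in a cell, the highest 25, and 28 of 79 cells had 0 UMIs. Of the others, 4 cells had 1 UMI, 47 had 2 or more and 21 had 5 or more. Intervals for pooled Vcam1 in these cells do not cover this spread between cells.

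**Figure D4:**
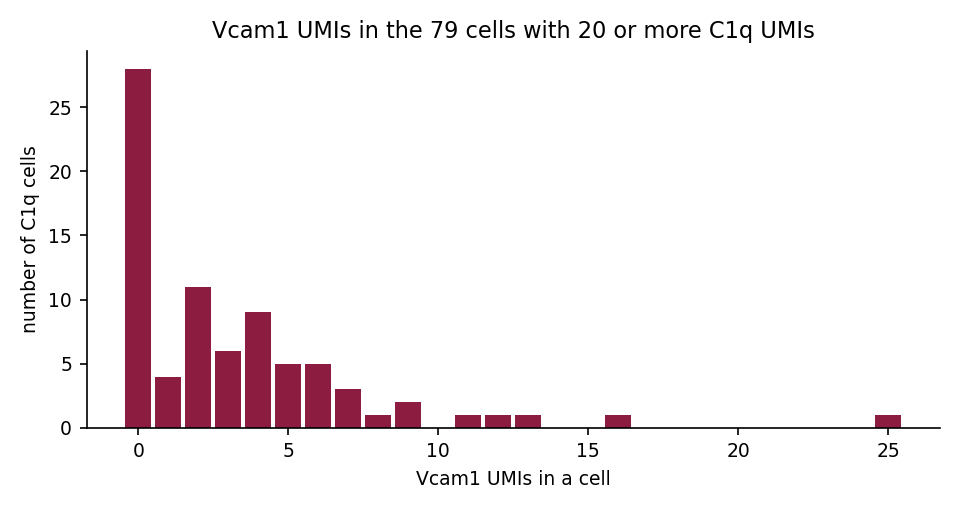
Number of C1q cells (y axis) by the Vcam1 UMIs in the cell (x axis), for all 79 cells. The tallest bar is the 28 cells at 0 UMIs, few cells are at 1 UMI, and the tail reaches 25.

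Some other macrophage genes differed between the C1q cells with and without a Vcam1 UMI. The 51 with a UMI had a median depth of 7615 and the 28 without 6112.5. Cd5l, a secreted macrophage protein, stood at 1522 CPM in the former and 274 CPM in the latter. Timd4, a receptor for dying cells, stood at 649 and 242 CPM, and Spic, a transcription factor of iron-handling macrophages, at 248 and 91.5 CPM. Mrc1, the mannose receptor, went the other way, at 93.4 and 237 CPM, while Csf1r was 428 and 474 CPM. For Csf1r, Mertk, Axl, Dnase2a, Sirpa and Cd68 the interval of the ratio between these groups included 1. The ratio was 1.19 (1.07 to 1.33) for Hmox1, 1.22 (1.07 to 1.40) for Slc40a1 and 0.854 (0.767 to 0.953) for Lyz2. Maea was 86.1 and 80.7 CPM, with overlapping intervals. The grouping was made from the readout after the distribution was seen, so it is a description.

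Itgav, the αV chain to which ICAM4 binds, had a similar distribution at lower counts. It stood at 57.4 CPM in C1q cells (39.7 to 80.2, 34 UMIs). In the stages it was 4.92 CPM in S0-low (57 UMIs), 1.10 in S0-medium, 1.76 in S1 and 0.432 in S2 (4 UMIs), with 1 UMI each in S3 and S4/S5. Without other lineages S0-low had 2.66 CPM (26 UMIs), and S0-medium over S0-low was 0.416 (0.191 to 0.854). C1q cells exceeded the pooled stages by 30.9-fold (20.2 to 46.5), and by 48.0-fold (30.3 to 75.3) with other lineages left out of the stages. Hepatocyte-marker cells had 17.9 CPM, myeloid-marker cells 10.9 and mesenchymal-marker cells 41.1 (4 UMIs). An Itgav UMI was found in 31.6% of C1q cells and in 0.882% of stage cells without other lineages.

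**Figure D5:**
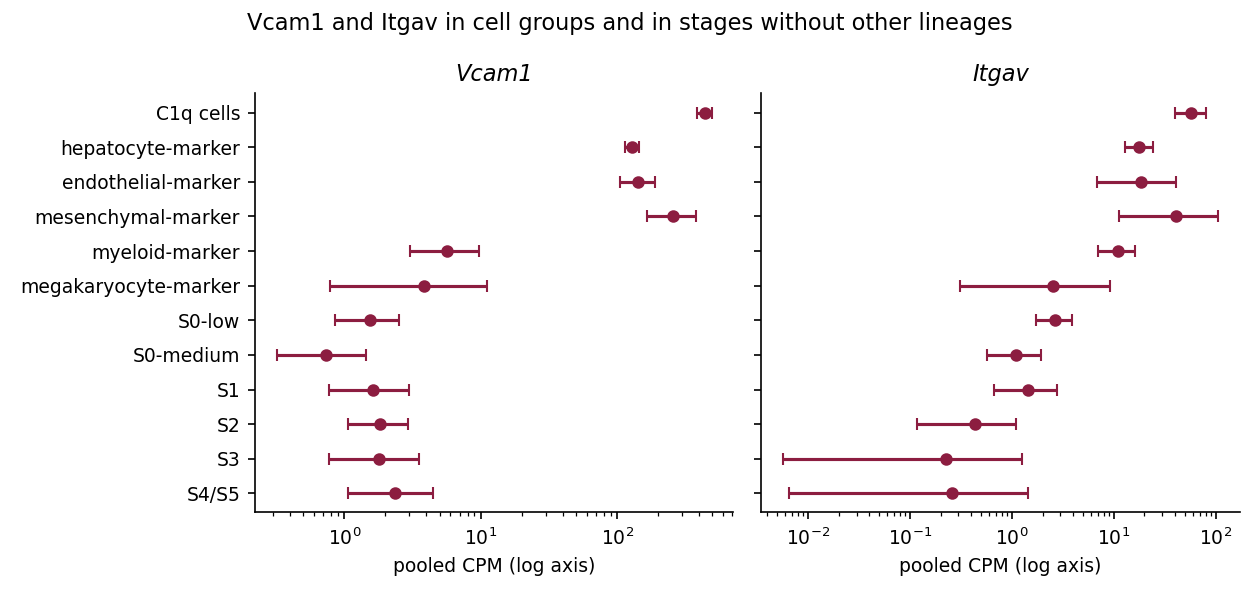
Pooled CPM (x axes, log scale) of Vcam1 (left) and Itgav (right) in C1q cells, in 5 groups of cells with markers of other lineages and in the 6 stages without such cells, with exact 95% intervals for counting error. C1q cells have the highest values, 437 and 57.4 CPM, and the mesenchymal-marker interval for Itgav overlaps that of the C1q cells.

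The other members were read in the C1q cells too. Itgb1, at 150 CPM (121 to 185, 89 UMIs), exceeded the stages by 2.04-fold (1.64 to 2.52), or 1.82-fold without globin in the totals. Against S0-low its ratio was 1.68 (1.34 to 2.09). It was higher still in megakaryocyte-marker cells at 294 CPM and in mesenchymal-marker cells at 288 CPM (28 UMIs). Endothelial-marker cells had 198 CPM (64 UMIs), with an interval that overlapped that of C1q cells. Itga4 was 43.9 CPM (26 UMIs), 0.545 of the stages (0.356 to 0.801). Maea, at 84.4 CPM (62.6 to 111), had a ratio to the stages of 1.26 (0.932 to 1.66), an interval that includes 1 and reaches from slightly lower to 1.66-fold higher. Against S3, Maea in C1q cells was 2.35-fold higher (1.68 to 3.24), where the median gene had 1.53, and against S0-low the ratio was 0.906 (0.668 to 1.20).

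Icam4 in C1q cells was 35.4 CPM (21 UMIs), a ratio of 0.180 to the stages (0.111 to 0.276). It lay in few cells: 68 of the 79 had 0 UMIs, and 2 cells held 12 of the 21 UMIs. In those 2 cells globin took 13.3% and 18.4% of the UMIs. The other 77 cells had 15.6 CPM (7.15 to 29.7), beside 9.83 CPM in hepatocyte-marker cells and 18.3 CPM in myeloid-marker cells. The C1q cells with a globin share at or under their median had 9.12 CPM (3 UMIs) and those above it 68.3 CPM (18 UMIs). The latter include the 2 cells with 12 Icam4 UMIs, so this split is not separate from them.

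In all, 3 of 6 members (Vcam1, Itgav and Itgb1) were at least 2-fold higher in C1q cells than in the stages, beside 22.5% of genes, and 1 (Icam4) at least 2-fold lower, beside 20.7%. Without globin in the totals Itgb1 fell under 2-fold. The median ratio of the members was 1.65 and that of all genes 0.957. At the edge of the definition of C1q cells, the 4 cells with 15 to 19 C1q UMIs had 3 Vcam1 UMIs (133 CPM) and the 9 cells with 20 to 24 had 23 (362 CPM).

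Other integrin chains with enough UMIs to be compared were lower in S3 than in S0-low. Of 12 listed partners, 6 had 50 or more UMIs in S3 and S0-low together, and all 6 were at least 2-fold lower in S3, beside 64.2% of all genes, with a median ratio of 0.176. Without other lineages 4 had enough UMIs and all 4 were at least 2-fold lower, beside 63% of genes, with a median of 0.136. Itga6, a laminin receptor chain, stood at 14.0 CPM in S0-low and 1.11 CPM in S3, and without other lineages at 14.4 and 0.897 CPM. Itgb2, the leukocyte β2 chain, stood at 10.1 CPM in S0-low, had 9 UMIs in S3 and stood at 52.3 CPM in C1q cells and 42.3 CPM in myeloid-marker cells. Itga6, Itgb2 and Itga2b reached 50 UMIs through S0-low, with 162, 117 and 112 UMIs there. The counts for S3 over S0-low are therefore descriptions and no test. Itgb3, under that limit, had 1.55 CPM in S0-low (18 UMIs) and 2.22 CPM in S3 (10 UMIs), with overlapping intervals. In C1q cells 6 of 8 measured partners were at least 2-fold higher than in the stages, beside 22.5% of genes, and 2 were lower, beside 20.7%.

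As a set, genes that link integrins to the cytoskeleton had a median near that of all genes. In S3 over S0-low, 1 of 16 (Rap1a) was at least 2-fold higher, beside 5.78% of all genes, and 9 were at least 2-fold lower, beside 64.2%. Their median was 0.371 and that of all genes 0.379. Without other lineages 1 of 14 was at least 2-fold higher, beside 6.13% of genes, and 7 at least 2-fold lower, beside 63%. The median was then 0.438 and that of all genes 0.392. Rap1a, a small GTPase that activates integrins, stood at 285 CPM in S0-low and 593 CPM in S3, whereas its relative Rap1b stood at 207 and 119 CPM. Tln1, which encodes talin, stood at 68.2 and 45.0 CPM, and Lims1 at 68.0 and 87.4 CPM. In C1q cells 8 of 16 were at least 2-fold higher than in the stages, beside 22.5% of genes, and 0 lower, beside 20.7%, with Rap1b at 861 CPM against 166 CPM. Rap1b was higher still in megakaryocyte-marker cells, at 4060 CPM, as was Tln1, at 567 CPM against 130 CPM in C1q cells.

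Genes listed for the CTLH ligase, to which MAEA belongs, lay on both sides, with a median ratio above that of all genes. Of 11 other genes listed for it, 5 were at least 2-fold higher in S3 than in S0-low (Gid8, Ranbp10, Ube2h, Wdr26 and Ypel5), beside 5.78% of all genes. Another 3 were at least 2-fold lower (Gid4, Ranbp9 and Rmnd5b), beside 64.2%. The median ratio of the 11 genes was 1.31 and that of all genes 0.379. Gid8 stood at 57.5 CPM in S0-low and 193 CPM in S3, Wdr26 at 74.4 and 189 CPM, and Ypel5 at 7.76 and 141 CPM, while Mkln1 stood at 46.2 and 43.5 CPM. In C1q cells 0 of these genes were at least 2-fold higher than in the stages, beside 22.5% of genes, and 3 were lower, beside 20.7%.

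Other surface genes of the island lay on both sides as well. In S3 over S0-low, 3 of 9 were at least 2-fold higher, among them Bsg and Cd36, beside 5.78% of all genes. Another 4 were at least 2-fold lower (Cd44, Icam1, Icam2 and Kit), beside 64.2%. The median ratio was 0.768 and that of all genes 0.379. Without other lineages 3 of 8 were at least 2-fold higher, beside 6.13% of genes. Another 3 (Cd44, Icam2 and Kit) were at least 2-fold lower, beside 63%. The median was then 1.03 and that of all genes 0.392. Cd47, the signal that restrains phagocytosis, stood at 411 CPM in S0-low and 617 CPM in S3. Bsg, which encodes basigin, stood at 427 and 994 CPM, and Cd44, the hyaluronan receptor, at 55.6 and 5.77 CPM. Of the other ligands of these integrins, 4 of 5 were at least 2-fold lower in S3, beside 64.2% of genes, among them Fn1 (fibronectin) at 61.0 and 9.54 CPM and Vtn (vitronectin) at 78.6 and 9.76 CPM. Hepatocyte-marker cells, 106 of which lay in S0-low, had 586 CPM of Fn1 and 690 CPM of Vtn. Without other lineages, 2 of 5 ligands (Emilin1 and Mfge8) were at least 2-fold lower in S3, beside 63% of genes. The ratio of Fn1 was then 1.25 (0.685 to 2.23) and that of Vtn 1.39 (0.816 to 2.33), so the lower level of both in S3 was lost.

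Most listed genes of island macrophages were high in the C1q cells. Of 17 listed, 14 had enough UMIs, and 13 of these were at least 2-fold above the stages, beside 22.5% of genes. The median ratio of the 14 was 300.4. The listed genes with too few UMIs were Cd163, Siglec1 and Palld. In the C1q cells with a Vcam1 UMI they had 0, 3 and 4 UMIs, and in those without 0, 0 and 1. Hmox1, which breaks down heme, stood at 2938 CPM against 7.12 CPM and Slc40a1, the iron exporter ferroportin, at 1968 against 29.3 CPM. Dnase2a, the nuclease that digests expelled nuclei, stood at 127 against 17.4 CPM, and Trf, the transferrin gene, at 255 against 151 CPM. In the stages Trf lay mostly in S0-low, at 489 CPM, which was 22.3 CPM without other lineages, and hepatocyte-marker cells had 4482 CPM. The C1q UMIs chose these cells, so this list describes them and is no test.

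The neighbours of Icam4 had few UMIs in the stages. Icam1 stood at 4.57 CPM in S0-low and had 0 UMIs in S1, which allows up to 0.480 CPM (3 UMIs), and 2 UMIs each in S2 and S3. Icam5 had at most 9 UMIs in any stage. In C1q cells Icam1 stood at 37.1 CPM (22 UMIs) and Icam5 had 3 UMIs.

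Over 10 groups (the 6 stages, C1q, hepatocyte-marker, megakaryocyte-marker and myeloid-marker cells), the genes most like each member were found by Pearson's r of log2(CPM + 10) among 8887 genes. For Icam4 they were Cpox (r = 0.993), an enzyme of heme synthesis, Cldn13 (0.986) and Ubac1 (0.984). For Itga4 they were Chek2 (0.955), 4930579G24Rik (0.939) and Lgals1 (0.937), and for Itgb1 Gna13 (0.986), Ap3d1 (0.983) and 2610507B11Rik (0.982). For Maea they were Zrsr2 (0.994), Birc6 (0.989) and Phf23 (0.985). For Vcam1 they were Tmem51 (0.995), Cadm1 (0.995) and Marcks (0.994), and for Itgav Ctsh (0.997), Nrp1 (0.988) and Grn (0.986). Between members, r was 0.945 for Itgav and Vcam1, 0.939 for Itgb1 and Maea and 0.694 for Itga4 and Icam4. The groups share 1 library and differ in depth, and these correlations are descriptions.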

How the data were processed

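CITE-seq was performed on 1 pool of e13.5 fetal liver cells. The authors mapped the cDNA reads to mm10 with Cell Ranger and deposited unnormalized UMI counts for each gene in each cell. Antibody reads were assigned to cells with CITE-seq-Count and deposited as raw counts. Both tables were used as deposited. Depth per cell was 2510 to 38047 UMIs.

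The members and gene lists were chosen with earlier results of these data known. The study's quality limits (300 to 5000 detected genes, no more than 9% of UMIs mitochondrial) removed 508 cells. Doublets were removed with Scrublet (scanpy 1.11.5, expected rate 6%), which called 128 cells or 1.63%. The lineage limit lay 2 scaled median absolute deviations above the median of the log summed antibody counts for CD41, CD45R, CD3e, CD11b and Ly6G/6C. Each antibody was put on a centered log ratio scale and split by k-means (scikit-learn 1.9.0). These gates stand in for the study's, whose positions are not given in the sources used here. Cells of other lineages were set apart, after their distribution was seen, at 3% hepatocyte UMIs, 20 megakaryocyte or myeloid UMIs, or 10 endothelial or mesenchymal UMIs.

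Levels were computed as pooled CPM with exact Poisson intervals, ratios with exact conditional binomial intervals and shares with Clopper-Pearson intervals at 95% (scipy 1.17.1). Intervals and floors of 3 counts cover counting error only. Genes with 50 or more UMIs in a comparison form its background. The ratio script was tested on simulated counts. Named genes were the 6 members, Icam1 and Icam5, the 3 genes most like each member with 200 or more UMIs, and from each list up to 4 genes with the most UMIs. Genes named as the members of a count fall outside this rule. So do Cd5l, Timd4, Spic, Mrc1, Csf1r, Adgre1, Mertk, Axl, Sirpa, Cd68, Lyz2, Cd163, Siglec1 and Palld. They were chosen after their values were seen or as markers. The values of 1 listed surface gene are not reported here. The promoter table used here had no entry for Vcam1 or Maea. Alternatives covered the antibody scale, the classes, the filters, the unit, the C1q minimum and free RNA.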

Additional observations from a re-analysis of the deposited data

How the results depend on the processing

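One library gives no spread between animals, and low counts limit Itgav (179 UMIs in the kept cells) and Vcam1 in the stages. No paired analysis was possible because the 2 libraries hold the same cells and no result comes from a test. S3 over S0-low for Icam4 was 9.70 with log10 antibody counts, 5.96 with the centered log ratio within each cell, 9.65 with a Gaussian mixture, 7.30 without globin, 3.22 in UMIs per cell, 3.94 without other lineages and 5.12 with free RNA (the level in hepatocyte-marker cells) subtracted. For Itga4 it was 0.688, 0.534 and 0.657 under the 3 other gates, 0.562 in UMIs per cell, 0.702 as a mean over cells and 1.27 without globin, which turned its direction. For Itgb1 it was 0.453 with log10 counts, 0.190 with the ratio within each cell, 0.504 without globin, 0.222 in UMIs per cell and 0.245 as a mean over cells. For Maea it was 0.293 with the ratio within each cell, 0.612 without globin and 0.270 in UMIs per cell. In C1q cells over the stages, Vcam1 was 95.3 as a mean over cells, 57.9 without quality limits, 26.7 in the 3 lineage-low C1q cells and 290 without other lineages, and Itgav was 48.0 without other lineages; leaving out other lineages here was chosen after the data were seen. A value was counted as turned only where the reported interval excluded 1. Itga4 in S1 over S0-medium, at 0.942 and at 1.02 with log10 counts, was therefore not counted. Between neighbouring stages, 7 of 180 values turned direction by this rule. In UMIs per cell these were Itga4 in S0-medium over S0-low (1.22) and S2 over S1 (0.803) and Icam4 in S3 over S2 (0.830). Without globin they were Itga4 (1.14) and Maea (1.06) in S3 over S2. Icam4 in S3 over S2 was 0.783 with the ratio within each cell, and Vcam1 in S0-medium over S0-low was 1.24 with log10 counts. The cause was not tested. Free RNA could not be subtracted for Itgb1, Vcam1, Itgav or Maea, whose level in hepatocyte-marker cells exceeded that of a group compared. The other 39 of 65 values for S3 over S0-low and for C1q cells lay within the interval of the reported value.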
